A study of Mus musculus with 6 samples.

Results

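The mitochondrial ribosomal protein genes described here were every protein-coding row of the count table whose symbol starts with Mrps or Mrpl followed by a digit. This rule found 78 genes among 56953, of which 29 carry an Mrps symbol (small subunit) and 49 an Mrpl symbol (large subunit). The filter on low counts, at least 10 counts in enough libraries for the smallest group, kept 77 of the 78 and 14738 genes in all. The gene left out was Mrpl53.

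RNA was sequenced from cultures of pancreatic acini, the clusters of enzyme-secreting cells of the exocrine pancreas, after 3 days in a culture assay of acinar-to-ductal metaplasia (ADM), the turning of acinar into duct-like cells. The 3 groups had 2 libraries each, numbered as in the labels: wild-type (WT) acini, acini from Dkk3-null mice (DD), and DD acini given recombinant DKK3, a secreted glycoprotein (DD + rDKK3). The null allele is carried by every cell of the mouse, and dexamethasone and a trypsin inhibitor were in the medium of all cultures. The labelled ages climb by 1 week per library in the order of the samples, from 10 weeks for WT 1 to 15 for DD + rDKK3 2, an even run that was not checked against any other source. If taken as given, age cannot be told apart from group. WT 2 was the one library labelled female, so sex cannot be told apart from the difference between the 2 WT libraries. No label names the mouse behind a culture. If the labelled ages are taken as given, the 2 cultures of each group came from mice of different age. P-values measure the spread between these libraries, and how much of it is technical was not tested. Library totals ran from 12018473 counts (WT 1) to 19750401 (DD 1). WT 2 held 14398015, and the smallest total of a Dkk3-null library was 16234731 (DD 2). Both WT libraries were thus shallower than every Dkk3-null library. Depth cannot be told apart from the difference between WT and Dkk3-null libraries, and its part in the members' levels was not tested. The Dkk3 row held 10 counts for WT 1 and 1 for WT 2, 11 and 9 for the DD libraries and 5 for each DD + rDKK3 library, at or under 1 CPM (counts scaled to library size) throughout. The null allele replaces the exon that holds the secretion signal, and the row counts reads of all transcripts of the gene, also of a shorter one that starts downstream of that exon. The row therefore does not check the genotype, and every direction below is between libraries as they are labelled. DD 2 and DD + rDKK3 2 stood apart from the other 4 libraries on the first principal component and carried the most fibroblast and stellate cell RNA. WT 1 stood apart on the second.

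Mitochondria keep a ribosome of their own, built from nuclear-encoded proteins and mitochondrially encoded RNA, which makes only the membrane-embedded core subunits of the respiratory chain and the ATP synthase. Its small subunit reads the mRNA at the decoding centre and its large subunit forms the peptide bond. Some of its proteins descend from bacterial ribosomal proteins and others were gained by mitochondria. Because the protein genes are scattered over the nuclear genome, their supply depends on many separate promoters, and in this class of genes promoters with binding sites for NRF1, ETS factors such as GABPA, and YY1 are well known. A few symbols mislead: MRPS18A and MRPS30 sit in the large subunit, and the MRPS36 protein belongs to the 2-oxoglutarate dehydrogenase complex.

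The sequences shown first are promoter stretches of 5 members, because members scattered over the genome share letters of this kind. Each is the 250 bases before the start of the gene in RefSeq (GRCm38.p6), written 5′ to 3′ on the strand of the gene. Capitals mark matches, on either strand, to GCGC, any base, then TGCGC (NRF1), CCGGAAG (ETS), AAGATGGCG (YY1) or CCAAT. Mrpl22 was among the 2 members with an unadjusted p under 0.05 in DD against WT, Mrpl45 and Mrps21 hold NRF1 letters, Mrps18a holds ETS letters and a CCAAT box, and Mrps2, the member with the highest log2 fold change in DD, holds none of the 4.
Mrpl22, chr11:58171414-58171663, plus strand: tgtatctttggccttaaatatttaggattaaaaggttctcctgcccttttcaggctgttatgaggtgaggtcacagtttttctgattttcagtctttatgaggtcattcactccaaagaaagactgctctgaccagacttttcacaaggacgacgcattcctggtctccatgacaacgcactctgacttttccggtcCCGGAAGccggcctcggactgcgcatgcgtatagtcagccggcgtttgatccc
Mrpl45, chr11:97315466-97315715, plus strand: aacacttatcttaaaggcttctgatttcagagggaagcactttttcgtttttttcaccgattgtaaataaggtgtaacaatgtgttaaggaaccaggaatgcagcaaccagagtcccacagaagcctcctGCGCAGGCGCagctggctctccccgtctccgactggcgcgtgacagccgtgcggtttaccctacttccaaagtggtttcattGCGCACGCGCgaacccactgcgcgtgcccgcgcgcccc
Mrps21, chr3:95871515-95871764, minus strand: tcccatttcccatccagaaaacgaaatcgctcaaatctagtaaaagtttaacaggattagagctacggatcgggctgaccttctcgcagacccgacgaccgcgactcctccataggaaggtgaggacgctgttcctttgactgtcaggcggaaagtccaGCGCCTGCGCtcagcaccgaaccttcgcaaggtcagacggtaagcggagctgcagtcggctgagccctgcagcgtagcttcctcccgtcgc
Mrps18a, chr17:46110754-46111003, plus strand: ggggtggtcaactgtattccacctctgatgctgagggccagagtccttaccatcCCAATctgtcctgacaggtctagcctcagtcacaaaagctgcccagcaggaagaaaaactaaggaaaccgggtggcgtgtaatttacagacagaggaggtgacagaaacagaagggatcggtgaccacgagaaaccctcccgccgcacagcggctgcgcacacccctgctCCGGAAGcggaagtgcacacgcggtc
Mrps2, chr2:28467816-28468065, plus strand: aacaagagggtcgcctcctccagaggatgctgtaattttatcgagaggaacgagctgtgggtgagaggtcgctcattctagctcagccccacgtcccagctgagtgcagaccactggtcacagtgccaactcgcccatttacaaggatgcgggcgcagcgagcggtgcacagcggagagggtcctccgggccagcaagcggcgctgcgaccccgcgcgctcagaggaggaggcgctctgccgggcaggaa
The ETS match of Mrpl22 starts 53 bases before the gene and that of Mrps18a 26 bases before it, while the NRF1 matches of Mrpl45 start 120 and 38 bases before it. The NRF1 match of Mrps21 starts 91 bases before the gene.

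RefSeq windows of 300 bases (the stretch above plus the first 50 transcribed bases) were at hand for 69 of the 78 members. ETS letters stood in the windows of 26 of the 69 (37.7%), against 9.93% of all genes with a window and 19.7% of the protein-coding genes tested. For NRF1 the counts were 13 of 69 (18.8%) against 5.19% and 11.3%, and for YY1 8 of 69 (11.6%) against 1.64% and 3.55%. At least 1 of these 3 stood in 41 of 69 member windows (59.4%), against 15.1% of all genes and 30.8% of the protein-coding genes tested. The CCAAT letters (39.1% of members, 41.1% of all genes, 43.0% of those tested) and TATAAA (7.25%, 15.7% and 9.03%) were not more frequent in members. CpG dinucleotides were dense, with a median of 21 per member window against 7 over all windows and 20 over those of tested protein-coding genes. At least 10 stood in 71 of 75 member windows (94.7%), against 43.5% of all windows and 77.7% of those of tested protein-coding genes. These are matches of letters and not measured binding. Members with an ETS match had a median log2 fold change of -0.25 in DD against WT and those without one -0.22. For NRF1 the medians were -0.19 with a match and -0.23 without. For YY1 they were -0.17 with a match (8 members) and -0.25 without, and for any of the 3 -0.20 and -0.25.

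Members lay on 17 chromosomes, 11 of the 78 on chromosome 11, and none on chromosome 18, X or Y. A head-to-head arrangement was frequent: in GENCODE M39 (GRCm39) 32 of the 77 tested members (41.6%) had the start of an opposite-strand protein-coding gene within 1000 bases of their own, against 15.7% of 12698 tested protein-coding genes. Among these pairs are Mrps12 with Sars2, the mitochondrial seryl-tRNA synthetase gene, and Mrpl43 with Twnk, the mitochondrial DNA helicase gene. Mrps11 and Mrpl46 on chromosome 7 pair with each other, with starts 412 bases apart and gene bounds that overlap on opposite strands.

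The 6 processed pseudogenes with an Mrp symbol had at most 10 counts in any library. Copies under other names were not searched for, and how reads shared with copies were assigned was not tested. Counting dropped reads that touched more than 1 gene, and 12 of the 78 members overlap another row on the same strand. By the exons of M39, 7 of the 78 share bases with another gene on the same strand. Mrps15, with Oscp1, is among these 7 but not among the 12. Nme3, a nucleoside diphosphate kinase gene, shares 48.3% of the exon bases of Mrps34. Slc5a3 and Gm49711 share 42.0% of those of Mrps6, and Gm38077 shares 33.8% of those of Mrpl3. The levels of Mrps34, Mrps6 and Mrpl3 are uncertain for that reason. Mrpl53 (chr6:83086021-83086920, plus strand, GRCm39) lies wholly inside the row of Gm42688 and was listed at 0 counts in all 6 libraries. Gm42688 itself held 32 counts over the 6 libraries, so 0 is no measure of the level of Mrpl53.

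Levels differed between the tested members. Mean CPM over the 6 libraries ran from 9.25 to 125 with a median of 39, from Mrps33 (chr6:39778738-39787922) to Mrpl17 (chr7:105452413-105460306). On the scale of CPM per kilobase of all annotated exons, Mrps23 (52.9), Mrps34 (37.2) and Mrps24 (36.8) were the highest Mrps genes, and Mrps27 (1.71), Mrps9 (1.90) and Mrps35 (2.06) the lowest. Among Mrpl genes Mrpl34 (59.0), Mrpl28 (48.2) and Mrpl12 (37.0) led and Mrpl23 (2.02), Mrpl33 (2.12) and Mrpl3 (2.65) came last. The order depends on which length is used: with the canonical transcript, 3 of these 12 genes kept their place among the 3 at that end, namely Mrps24, Mrps34 and Mrpl28. Mrpl33 went from 2.12 to 42.0 CPM per kilobase with that change, because its annotated exons add up to 14501 bases and its canonical transcript to 732.

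Across libraries most members followed one pattern. The mean log2 CPM of the 77 members, centred on its own average over the 6 libraries, was 0.32 in WT 1, 0.09 in WT 2, -0.16 in DD 1, 0.09 in DD 2, -0.14 in DD + rDKK3 1 and -0.20 in DD + rDKK3 2. WT 1 was the highest and both DD + rDKK3 libraries and DD 1 formed a low set, while WT 2 and DD 2 could hardly be told apart. Between those 2 libraries 39 members were higher in WT 2 and 38 in DD 2. Within the groups, the 2 WT libraries differed by a median of 0.22 and the 2 DD libraries by 0.28, and the 2 DD + rDKK3 libraries by 0.07. WT 1 held the highest level of 65 of the 77 members, where it held the highest of 27.9% of all genes tested. The lowest level fell in DD + rDKK3 2 for 33 members, in DD 1 for 21 and in DD + rDKK3 1 for 18.

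**Figure D1:**
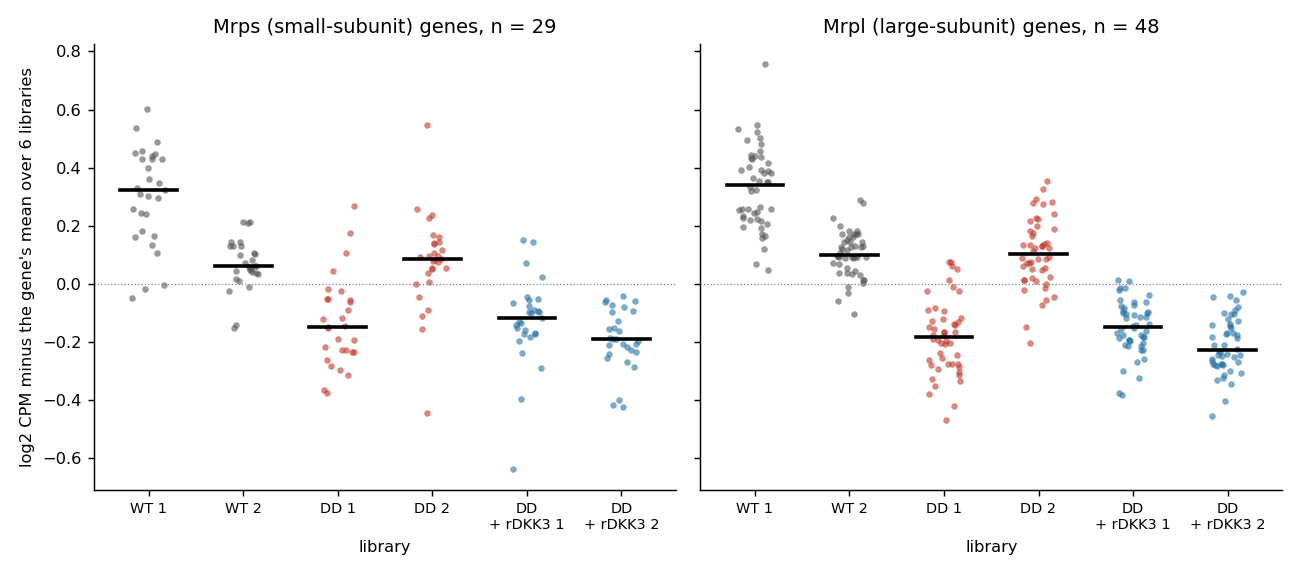
Level of each tested member in each of the 6 libraries, as log2 CPM minus the mean of that gene over the 6 libraries (y axis), for 29 Mrps genes and 48 Mrpl genes. Points are genes and black bars medians; WT 1 is highest, WT 2 and DD 2 are alike, and DD 1 and both DD + rDKK3 libraries lie below 0 for most genes.

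Summed over members, the level was 4454 and 3772 CPM for the WT libraries, 3139 and 3783 for DD and 3217 and 3064 for DD + rDKK3, or 4113 ± 482, 3461 ± 455 and 3140 ± 108 CPM (SD, n = 2 each). The ranges of WT and DD overlapped, and that of DD + rDKK3 lay below WT. These sums depend on the scaling: as a plain share of each library's counts they were 0.377% and 0.373% in WT against 0.336% and 0.396% in DD, and 0.326% and 0.320% with rDKK3. On that scale DD 2 was the highest library of all. The balance of the subunits hardly moved, with a ratio of summed Mrps to summed Mrpl CPM between 0.443 and 0.462 in the 6 libraries. In RNA from whole cultures, fewer cells of a type and less RNA per cell cannot be told apart.

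DD against WT asks what loss of Dkk3 goes with. No member passed the test (edgeR's quasi-likelihood test, Benjamini-Hochberg adjusted p under 0.05 over 14738 genes), where 0.0407% of all genes did. Still, 74 of the 77 members had a lower level in DD, against 48.3% of all genes, and their median log2 fold change was -0.25 beside 0.02 over all genes. With scaling by library size alone, which shifts the median of all genes to 0.22, the members' median was -0.03 and 43 of 77 were lower. The Mrps median was -0.23 and the Mrpl median -0.26, with a range over members from -0.48 (Mrps16) to 0.18 (Mrps2). The median standard error of a member was 0.17. More than 1 standard error from 0 lay 53 of 77 members, where 7269 of all 14738 genes did. An unadjusted p under 0.05 was reached by 2 members, both lower, where 3.99% of all genes had such a p and were lower and 4.27% had one and were higher, and the smallest adjusted p of any member was 0.586. The DD libraries lay wholly below the WT libraries for 34 members (44.2%), against 19.7% of all genes, and wholly above them for 0 members, against 18.1% of all genes. This count held 10 of 29 Mrps and 24 of 48 Mrpl genes. DESeq2 and limma-voom also called no member. The median rested on single libraries: it was -0.09 without DD 1 (64 members lower), -0.11 without WT 1 (65 lower), and -0.35 without DD 2 or without WT 2. The count of members at an unadjusted p under 0.05 went from 2 to 22 without DD 2, 15 without WT 2, 1 without DD 1 and 0 without WT 1 or either DD + rDKK3 library.

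Transcript length moved with this result. Over all genes tested, those with canonical transcripts of up to 1000 bases had a median log2 fold change of -0.21 in DD against WT, those of 1000 to 2000 bases -0.16, those of 2000 to 4000 bases -0.01 and longer ones 0.18. The members are short, with a median of 1820 bases against 3098 over all genes. Within the same 4 length ranges their medians were -0.31 (11 genes), -0.25 (32), -0.22 (22) and -0.17 (12), each below the median of all genes of that length. Spearman's correlation between length and log2 fold change was 0.37 over 14683 genes and 0.17 over the 77 members, as a description over genes that share libraries. By library, the correlation of length with centred level over all genes was -0.45 in WT 1, -0.13 in WT 2, 0.29 in DD 1, -0.12 in DD 2, 0.30 in DD + rDKK3 1 and 0.35 in DD + rDKK3 2. The order of the libraries is nearly that of the members' mean level, and the part of transcript length in the members' lower level was not tested. GC content of the transcripts showed a correlation of 0.05 with log2 fold change over all genes and of -0.08 over members.

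**Figure D2:**
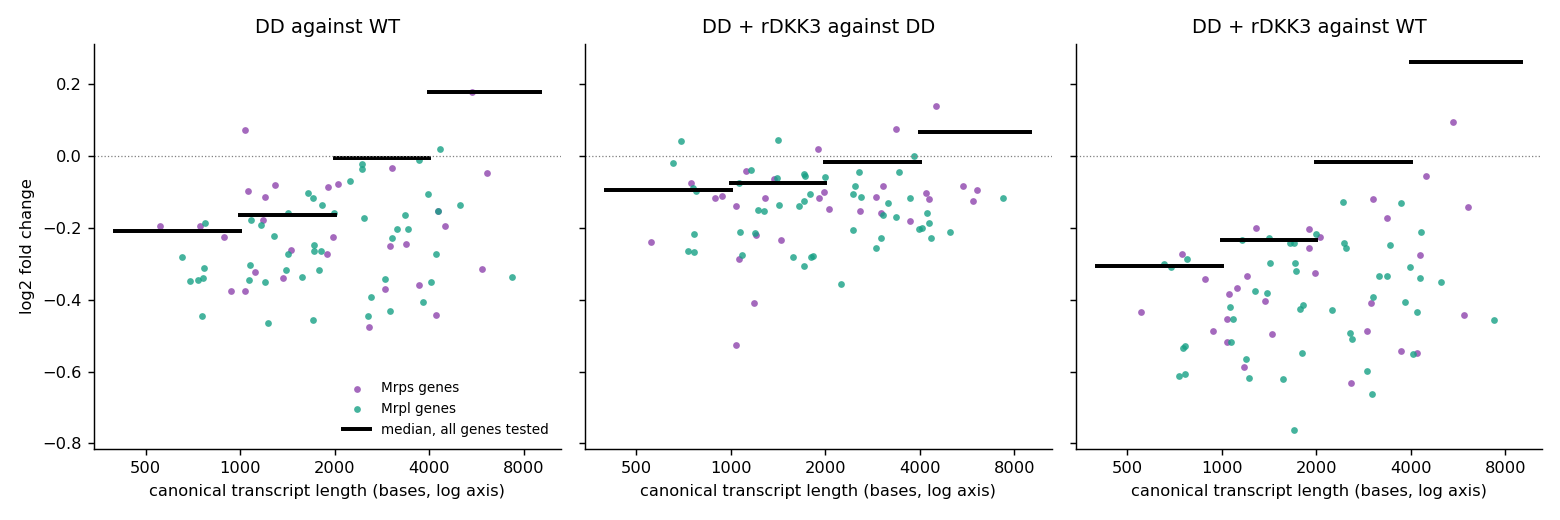
Log2 fold change of the 77 tested members (y axis, points) against the length of the canonical transcript in bases (x axis, log scale) in each of the 3 comparisons. Black bars are medians of all genes tested in the same length range; they climb with length in all 3 panels, and in DD + rDKK3 against WT most members lie below the bar of their own length.

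Among the small-subunit genes, those with the smallest p in DD against WT were Mrps35, Mrps34, Mrps16, Mrps17 and Mrps23. Mrps16 (chr14:20439372-20443702) had 51.9 and 37.4 CPM in WT against 27.9 and 36.2 in DD, while the DD + rDKK3 libraries had 32.01 and 25.5. WT 1 stood above the rest and WT 2 was close to DD 2. Its log2 fold change was -0.48 with a standard error of 0.22 and an adjusted p of 0.586. Mrps35 (chr6:146944262-146975489), gained in mitochondria, had 40.7 and 34.4 CPM in WT against 24.4 and 30.8 in DD, with no overlap (log2 fold change -0.44, SE 0.194). Mrps34 (chr17:25114090-25116476), whose product stabilises the small ribosomal RNA, had 115 and 94.0 CPM in WT against 73.3 and 87.4 in DD (-0.38, SE 0.172). For these 3 genes every DD library was below every WT library, and for none did the adjusted p fall under 0.586. Mrps17 and Mrps23 had log2 fold changes of -0.32 (SE 0.162) and -0.34 (SE 0.186).

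Only 2 Mrps genes had a higher mean level in DD. Mrps2 (chr2:28358078-28361190), whose product sits on the back of the small subunit, had 34.3 and 31.3 CPM in WT against 41.8 and 32.2 in DD, while the DD + rDKK3 libraries had 36.5 and 33.4. It was DD 1 alone that stood high, and the log2 fold change of 0.18 (SE 0.171, adjusted p = 0.701) was -0.0014 without that library. Mrps6 (chr16:91855158-91909115) had 22.2 and 15.2 CPM in WT against 14.7 and 24.6 in DD, so both groups held a high and a low library. Its value of 0.07 (SE 0.285) turned to -0.34 without DD 2.

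The genes fixed for their role showed no common size of change. Mrps12, which encodes the decoding-centre protein in which bacteria mutate to streptomycin resistance, had 33.5 and 25.9 CPM in WT against 20.3 and 31.5 in DD, with overlapping groups and a log2 fold change of -0.20 (SE 0.235). The 3 paralogs of bacterial protein S18 ran from -0.08 for Mrps18b through -0.23 for Mrps18a to -0.36 for Mrps18c. Mrps18c stood at 36.3 and 25.9 CPM in WT and at 20.9 and 27.5 in DD, and its standard error of 0.214 spans most of the distance between the paralogs. Mrps30 had -0.25 (SE 0.167) and Mrps36, the dehydrogenase subunit, -0.32 (SE 0.207), within the range of the ribosomal members.

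Of the large-subunit genes, Mrpl13 and Mrpl22 had the smallest p in DD against WT, followed by Mrpl32, Mrpl24 and Mrpl58. Mrpl13 (chr15:55397490-55421144) had 73.9 and 66.6 CPM in WT against 45.0 and 56.7 in DD, while the DD + rDKK3 libraries had 45.6 and 45.8. All 4 libraries labelled Dkk3-null lay below both WT libraries. The log2 fold change was -0.47 with a standard error of 0.162, an unadjusted p of 0.0218 and an adjusted p of 0.586. Mrpl22 (chr11:58062487-58070391), whose promoter is printed above and whose product lines the exit tunnel, had 23.7 and 22.1 CPM in WT against 14.5 and 19.1 in DD (-0.45, SE 0.187, unadjusted p = 0.0452). Mrpl24 had 166 and 124 CPM in WT against 91.6 and 121 in DD, and Mrpl32 56.7 and 44.0 against 32.1 and 42.5. In both of these genes DD 2 was within 3 CPM of WT 2, and the non-overlap came down to that gap.

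The stalk of the large subunit, which recruits the GTP-hydrolysing factors of translation, is built on Mrpl10, Mrpl11 and Mrpl12. Mrpl12, which also binds the mitochondrial RNA polymerase, was one of the most abundant members at 132 and 127 CPM in WT against 113 and 139 in DD, while the DD + rDKK3 libraries had 110 and 109. Its groups overlapped in DD against WT, at -0.04 (SE 0.162). Mrpl10 and Mrpl11 did not overlap, at -0.26 (SE 0.143) and -0.23 (SE 0.160). Mrpl58, a member of the release factor family that frees stalled peptides, had 66.2 and 53.3 CPM in WT against 40.2 and 50.8 in DD (-0.39, SE 0.187). The one Mrpl gene with a higher mean in DD was Mrpl48, at 0.02 (SE 0.175).

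**Figure D3:**
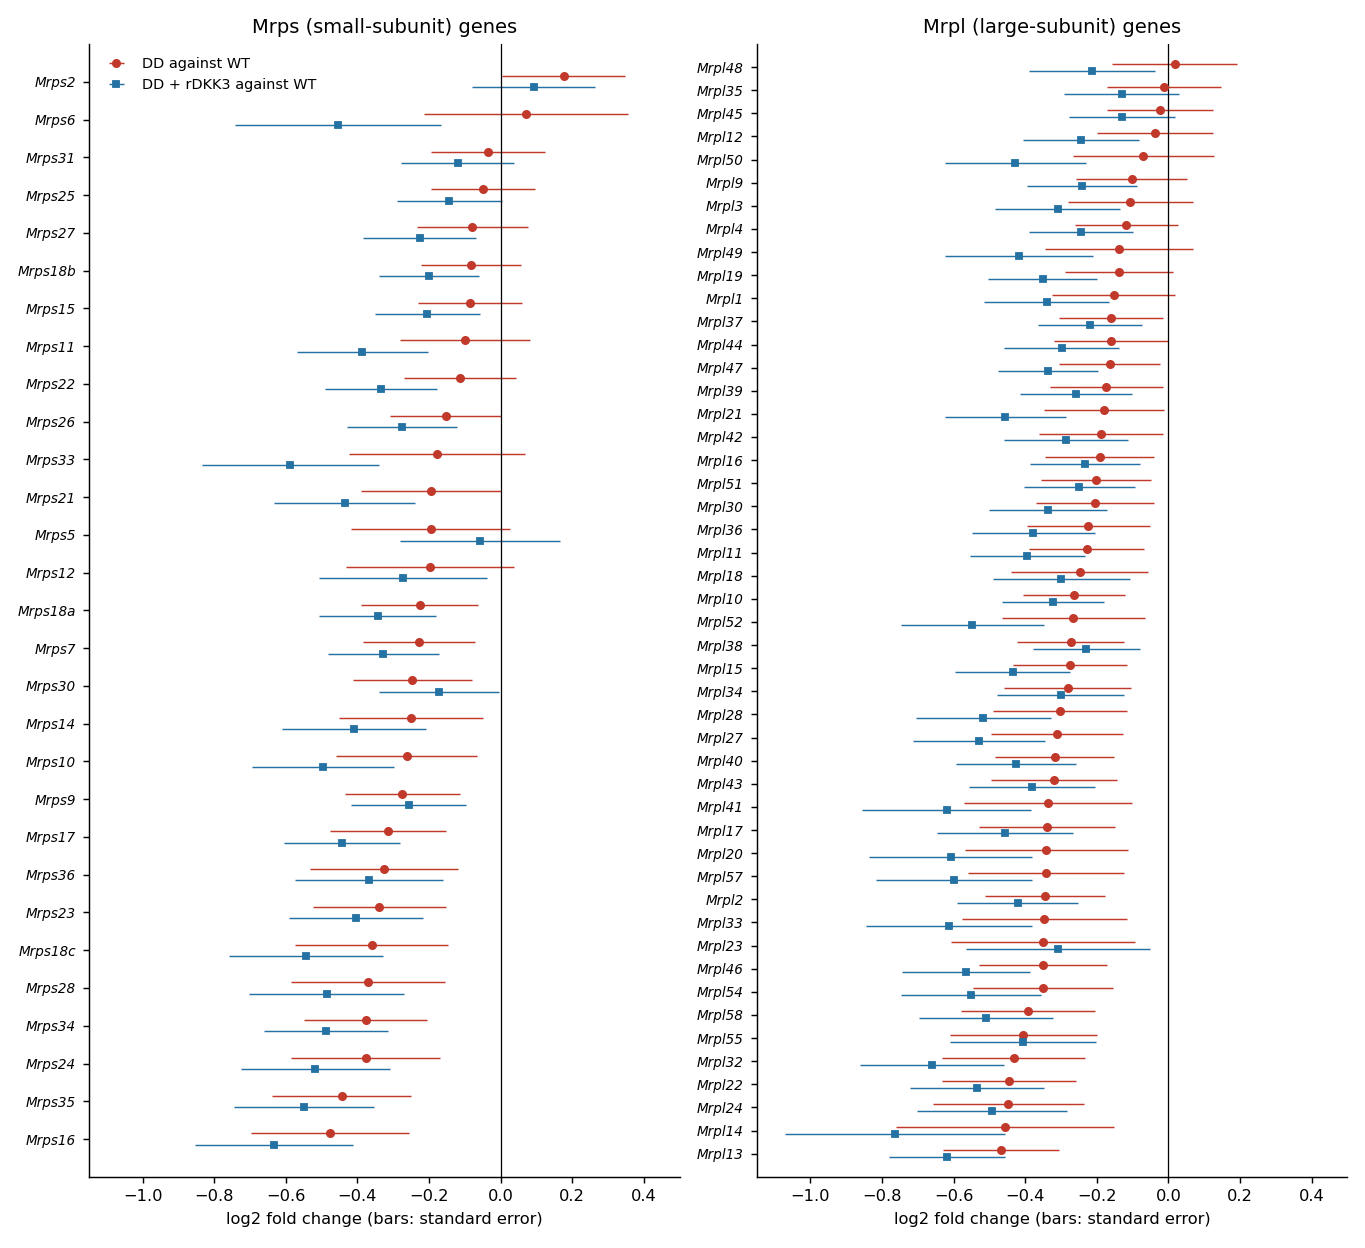
Log2 fold change against WT (x axis) of each tested member, ordered by DD against WT; red circles are DD and blue squares DD + rDKK3, and bars are standard errors. Of 77 members, 74 lie below 0 in DD (43 with scaling by library size alone) and 76 in DD + rDKK3 (71 with that scaling), and both comparisons share the WT libraries.

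DD + rDKK3 against DD asks whether the recombinant protein moves the levels of null acini. No member passed the test in this comparison, and no gene at all did (percent of all genes called, 0.0), with 1.98% of all genes (both directions together) and 0 members at an unadjusted p under 0.05. Here 72 of 77 members had a lower level with rDKK3, against 50.5% of all genes, and the median log2 fold change was -0.13 beside -0.0028 over all genes. Short genes in general were lower too, with 63.4% of all genes of up to 1000 bases below 0. From the shortest to the longest length range, medians of all genes were -0.10, -0.08, -0.02 and 0.07. Those of members were -0.11, -0.14, -0.14 and -0.12, and the part of length was not tested. The DD + rDKK3 libraries lay wholly below the DD libraries for 16 members (20.8%), against 14.4% of all genes, and wholly above them for 0 members, against 15.1%. The members' lower level hung on DD 2: without it the median was 0.0025 and 36 of 77 members were lower, and without DD 2 and DD + rDKK3 2 together it was 0.04 with 31 lower. Without DD 1 it was -0.29, with 13 members at an unadjusted p under 0.05, and without DD + rDKK3 2 there was 1 such member. The 3 members with the smallest p among those lower were Mrps6 (-0.53, SE 0.284), Mrpl50 (-0.36, SE 0.197) and Mrps33 (-0.41, SE 0.245), all with an adjusted p of 1. Mrpl50 stood at 51.3 and 74.8 CPM in DD and at 47.6 and 50.7 in DD + rDKK3, so that DD 2 was the library apart. Mrps33, the member with the lowest mean, had 8.66 and 10.6 CPM in DD against 5.81 and 8.66. Among those higher, Mrps5 (0.14), Mrps30 (0.07) and Mrpl38 (0.04) came first, each within 1 standard error of 0.

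DD + rDKK3 against WT set the treated null acini beside wild-type acini and held the larger differences. No member passed the test here either, where 0.0475% of all genes did, and the smallest adjusted p of a member was 0.321. Without the filter on low counts Mrpl14 and Mrpl32 passed, with adjusted p of 0.0117 and 0.0465, at a setting that called 788 genes (2.97% of those then tested). Yet 76 of 77 members had a lower level, against 48.4% of all genes, with a median log2 fold change of -0.38 beside 0.02 over all genes (with scaling by library size alone, -0.20 and 71 lower beside 0.18). The DD + rDKK3 libraries lay wholly below the WT libraries for 70 members (90.9%), against 27.1% of all genes, and wholly above them for 0 members, against 27.9% of all genes. At an unadjusted p under 0.05 there were 30 members, all lower (8 Mrps and 22 Mrpl genes), where 8.0% of all genes had such a p and were lower and 7.34% had one and were higher. That count was 1 without WT 1, 39 without WT 2, 8 without DD + rDKK3 1, 2 without DD + rDKK3 2, and 2 with scaling by library size alone. Mrpl13, Mrpl32 and Mrpl46 had the smallest p. Mrpl13 had a log2 fold change of -0.62 (SE 0.163, unadjusted p = 0.00572). Mrpl32, which is cleaved by the m-AAA protease before it joins the ribosome, had 56.7 and 44.0 CPM in WT against 34.2 and 29.4 in DD + rDKK3 (-0.66, SE 0.201). Mrpl46 had 34.9 and 31.1 CPM in WT against 23.3 and 21.2 (-0.57, SE 0.179). Its head-to-head neighbour Mrps11 had 20.6 and 16.8 against 13.6 and 15.0 (-0.39). The largest log2 fold change was -0.76 for Mrpl14, a gene with 86.0 CPM in WT 1 but 52.3 in WT 2 and a standard error of 0.307. The 1 member with a higher mean was Mrps2 (0.09, SE 0.172). Leaving out WT 1 gave a median of -0.24, and leaving out WT 2 gave -0.50. Length moved with this comparison too: the medians of all genes in the 4 length ranges were -0.31, -0.24, -0.02 and 0.26, and those of members -0.44, -0.38, -0.36 and -0.35.

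The genes that share a start region with members were split in direction. Of the 32 head-to-head members, 29 had a tested partner that is no member itself, and 12 of these 29 partners were lower in DD against WT (median 0.07) and 13 in DD + rDKK3 against WT (median 0.05). Gga3, 126 bases from the start of Mrps7 and encoding a Golgi sorting adaptor, had a log2 fold change of 0.42 in DD against WT, where Mrps7 had -0.23. Ncapd2, a condensin subunit gene 100 bases from Mrpl51, had 0.35 against -0.20. In other pairs both were low: Psma2, a proteasome subunit gene 75 bases from Mrpl32, had -0.42 beside -0.43, and Fau, which encodes a cytosolic ribosomal protein 59 bases from Mrpl49, had -0.49 beside -0.14. The partners had a median transcript length of 3551 bases and the members with a partner 1719, and the part of length in this difference was not tested. These 4 pairs were chosen after their values were seen.

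Proteins of the mitochondrial ribosome without the Mrp prefix had the same direction as the members. All 5 of them, Dap3, Ptcd3, Chchd1, Aurkaip1 and Gadd45gip1, had a mean in DD below that in WT, at a median log2 fold change of -0.21, and none passed the test. Chchd1, a small-subunit protein, had 87.0 and 60.1 CPM in WT against 40.3 and 60.7 in DD (-0.54, SE 0.248). Dap3, the GTP-binding protein of the small subunit, had -0.07 (SE 0.138) and Ptcd3, which binds mitochondrial ribosomal RNA, -0.01 (SE 0.145). With scaling by library size alone Dap3, Ptcd3 and Gadd45gip1 turned to 0.14, 0.20 and 0.01.

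The rest of mitochondrial gene expression did not move in one piece with the ribosomal proteins, and none of its genes passed the test in any of the 3 comparisons. Of the ribosome assembly factors 20 of 28 were lower in DD against WT (median -0.09). The 2 with the smallest p were lower: Tfb1m, which methylates the small ribosomal RNA, at -0.42 (SE 0.171) and Malsu1, which keeps immature subunits apart, at -0.48 (SE 0.200). On the other side stood Afg3l2, a subunit of the protease that matures MRPL32, at 0.38 (SE 0.194) and Dhx30, an RNA helicase, at 0.28 (SE 0.155). Translation factors and mRNA-binding proteins were split, with 10 of 17 lower (median -0.05). Mtres1, which rescues stalled mitochondrial ribosomes, had -0.44 (SE 0.147, unadjusted p = 0.0185, adjusted p = 0.586). Slirp and Lrpprc, whose products form 1 complex on mitochondrial mRNA, lay apart at -0.36 (SE 0.178) and 0.31 (SE 0.179). Mitochondrial aminoacyl-tRNA synthetases had 11 of 20 lower (median -0.01), led by Lars2 at -0.86 (SE 0.392), with 246 and 153 CPM in WT against 118 and 101 in DD, while the DD + rDKK3 libraries had 318 and 136. Of the genes for mitochondrial DNA and RNA synthesis and processing, 11 of 17 were lower (median -0.14), among them Hsd17b10, which encodes a subunit of mitochondrial RNase P (-0.36, SE 0.173) and Tfam, the packaging and transcription factor of mitochondrial DNA (-0.28, SE 0.163). Elac2, the nuclease that trims tRNA ends, and Polg, the mitochondrial DNA polymerase, were at 0.49 (SE 0.193) and 0.45 (SE 0.184). Genes of unlike transcript length were compared here, and the part of length in these differences was not tested.

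Known transcriptional regulators of these genes were not low in DD as the members were. In DD against WT 2 of 11 were lower, with a median log2 fold change of 0.10. The part of transcript length in this contrast with the members was not tested either. Nrf1 had 13.1 and 16.3 CPM in WT against 15.5 and 16.4 in DD, while the DD + rDKK3 libraries had 15.95 and 16.2. Gabpa had 38.5 and 34.4, 37.4 and 35.5, and 35.0 and 38.6 CPM in the same order, and Yy1 82.7 and 87.6, 94.6 and 83.9, and 90.4 and 87.9. The levels of all 3 thus overlapped between WT and DD. The coactivator genes Ppargc1a (0.49, SE 0.349) and Pprc1 (0.35, SE 0.235) had the smallest p among those higher, and in both WT 1 was the lowest library, at 5.11 CPM for Ppargc1a where WT 2 had 11.9.

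Cytosolic ribosomal protein genes, which have short and abundant transcripts, showed the pattern of the mitochondrial ones. Of 79 tested, 78 were lower in DD against WT (median -0.32), 79 in DD + rDKK3 against DD (median -0.17) and 78 in DD + rDKK3 against WT (median -0.49), and none passed the test. Their centred mean level per library was 0.41 and 0.10 in WT against -0.27 and 0.17 in DD, and -0.23 and -0.18 with rDKK3, with WT 1 highest, then DD 2 and WT 2, and the other 3 libraries below 0, as for the members. Summed CPM was between 16.1 and 18.1 times that of the mitochondrial set in every library. The 13 proteins that the mitochondrial ribosome itself makes are encoded in mitochondrial DNA, and 11 of these genes were tested. They were lower in DD against WT for 8 of 11 with a median of -0.09, and their summed level was 12680 and 8865 CPM in WT against 10300 and 10170 in DD, while the DD + rDKK3 libraries had 7781 and 13770. The 2 DD + rDKK3 libraries were thus the lowest and the highest, with an order unlike that of the nuclear-encoded members.

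**Figure D4:**
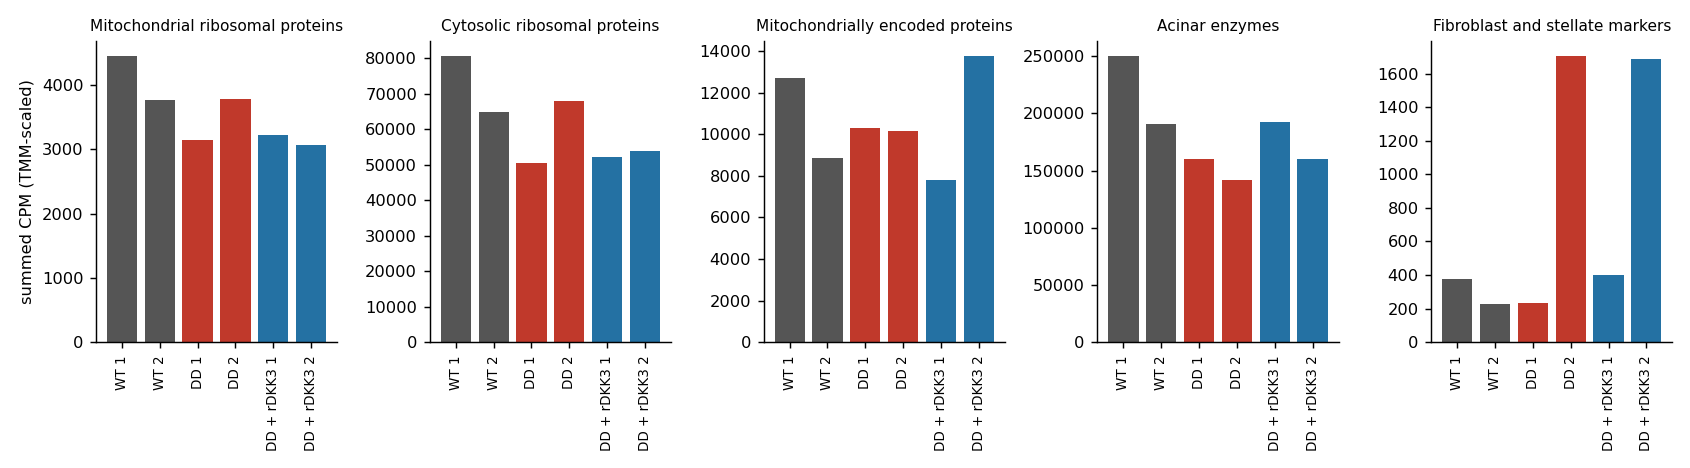
Summed CPM (y axis, from 0) in each of the 6 libraries for 5 gene groups, with grey bars for WT, red for DD and blue for DD + rDKK3. The mitochondrial and cytosolic ribosomal proteins share high WT 1 and DD 2 bars within their groups, and the fibroblast and stellate markers stand at 1706 and 1689 CPM in DD 2 and DD + rDKK3 2 against 225 to 398 elsewhere.

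Cell type markers were set beside these levels. Acinar enzyme genes made up 21.2% and 18.9% of counts in WT against 17.1% and 14.9% in DD, while the share with rDKK3 was 19.5% and 16.7%, so that acinar RNA dominated the markers in every library. Of 33 tested, 33 were lower in DD against WT (median log2 fold change -0.70), and none passed the test. The 18 ductal markers summed to between 4821 and 6981 CPM, highest in WT 1. As a share of counts, the unit used for the enzymes, they took 0.591% and 0.547% in WT and 0.633% and 0.654% in DD, with DD 2 highest, and 0.515% and 0.504% with rDKK3. The 18 fibroblast and stellate markers summed to 374 and 225 CPM in WT against 233 and 1706 in DD, while the DD + rDKK3 libraries had 398 and 1689, and none of them was at 0 in all libraries. Within DD, the library rich in these markers was the one with the higher member level. Within DD + rDKK3 it was the one with the lower. The 12 macrophage markers (145 to 364 CPM), the 10 endothelial ones (160 to 280) and the 10 islet ones (168 to 306) were low throughout, and 9 lymphocyte markers summed to under 1 CPM, with Nkg7 and Ms4a1 at 0 in all libraries. The part of cell composition in the members' levels was not tested.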

How the data were processed

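Whole-transcript libraries from 6 acinar cultures were measured. Per the study's methods and the processing notes, the authors aligned paired reads with STAR 2.7.9a to GRCm39, counted reads per gene by strand with GENCODE M32 basic, dropped reads that touched more than 1 gene, and deposited raw counts, without pooling replicates. The 92 spike-in rows, all at 0, were left out. From these counts, edgeR 4.0.16 in R 4.3.3 filtered genes (minimum count 10, minimum total 15), scaled by TMM and fitted 1 quasi-likelihood model over 6 libraries and 3 groups without covariates. P-values were two-sided and adjusted by Benjamini-Hochberg over 14738 genes. DESeq2 1.42.0 and limma-voom (limma 3.58.1) were alternatives, beside other scalings, no filter, a replicate term and leaving out each library. A standard error is the absolute log2 fold change over the root of the F statistic. CPM used TMM-scaled totals, where 1 count was worth 0.0473 to 0.0982 CPM, and log2 CPM a prior count of 2. The counting error of a tested member in a library was 2.04% to 9.53% of its count, and exceeded the SD of the 2 libraries in 43 of 231 member and group pairs. Lengths came from GENCODE M39 (GRCm39, a later release than M32) and promoter letters from RefSeq (GRCm38.p6), with no coordinate moved between builds. Named members were those called, those with the smallest p per subunit and direction, the extremes of level, and a set fixed for its role. The 5 promoters shown were picked for their motifs, and Mrpl22 and Mrps2 also with their values in DD against WT known. The code was tested on simulated data. The members and lists were chosen with earlier results of these data known.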

Additional observations from a re-analysis of the deposited data

How the results depend on the processing

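Each group had 2 libraries, and a lone library left in a group was assumed to vary like the others. No member was called under any alternative save without the filter on low counts, where Mrpl14 (-0.71, adjusted p = 0.0117) and Mrpl32 (-0.61, adjusted p = 0.0465) were called in DD + rDKK3 against WT by edgeR, among 788 genes in all against 7 with the filter. That setting called 528 genes in DD against WT against 6 with the filter, Lars2 among them (-0.80, adjusted p = 0.00615). Counting members at an unadjusted p under 0.05 gave 2 in DD against WT and 30 in DD + rDKK3 against WT, and leaving out 1 library moved these counts between 0 and 22 and between 1 and 39. Leaving out 1 library moved the members' median log2 fold change between -0.35 and -0.091 in DD against WT, between -0.29 and 0.0025 in DD + rDKK3 against DD, and between -0.50 and -0.24 in DD + rDKK3 against WT. Library size alone gave -0.031 and -0.20 for the comparisons with WT, and leaving out DD 2 and DD + rDKK3 2 together 0.036 for DD + rDKK3 against DD. The cause was not tested.

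With the replicate number as a replicate block, the members' medians were -0.25, -0.13 and -0.38 in the same order, and again no member was called. Over all genes, 7 were called in DD against WT and 5 in DD + rDKK3 against WT, where the fit without a block called 6 and 7. The main test took no pairing from the numbers. Between replicate 1 and 2, deviations correlated over all genes at -0.39 for WT with DD and -0.25 for WT with DD + rDKK3. For DD with DD + rDKK3 the correlation was 0.65 over all genes and 0.14 over members. The titles name the treated libraries after DD1 and DD2, while the labelled ages differ, so a pairing of these libraries is possible but not stated. Within the Dkk3-null libraries only, the block gave -0.29, -0.12 and -0.43, and turned Mrps6, Mrpl48 and mt-Nd6 to -0.20, -0.13 and -0.069 in DD against WT.

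Other genes changed sign in DD against WT, none of them called. Library size alone gave 0.12 for Mrps18b, 0.019 for Mrps12, 0.17 for Mrpl12, 0.14 for Dap3, 0.20 for Ptcd3, 0.0091 for Gadd45gip1, 0.11 for Esrra and 0.21 for Gabpa. Without the filter Mrpl12, Ptcd3 and Gabpa were at 0.017, 0.045 and 0.054. With limma-voom Mrpl48 was at -0.0014 and Gabpa at 0.0038, and with DESeq2 Gabpa was at 0.0083. Without DD 2 and DD + rDKK3 2 together, Mrps6, Mrpl48, Gabpa and Rps3a1 were at -0.34, -0.22, 0.036 and -0.0196, and in DD + rDKK3 against DD Mrps5 and Mrpl38 at -0.025 and -0.0035. Leaving out 1 library gave ranges of -0.13 to 0.016 for Dap3, -0.25 to 0.0699 for Esrra, -0.075 to 0.097 for Gabpa, -0.19 to 0.13 for Mrpl12, -0.22 to 0.25 for Mrpl48, -0.54 to 0.11 for Mrps12, -0.15 to 0.0075 for Mrps18b, -0.0014 to 0.35 for Mrps2, -0.34 to 0.42 for Mrps6, -0.064 to 0.066 for Ptcd3, -0.017 to 0.45 for Rps3a1, -0.64 to 0.26 for mt-Cytb and -0.61 to 0.20 for mt-Nd4. In DD + rDKK3 against DD the ranges were -0.047 to 0.12 for Mrpl38, -0.15 to 0.25 for Mrps30 and -0.14 to 0.46 for Mrps5.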
